A study of Homo sapiens with 2 samples.

Results

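The transcripts of 10 snoRNA host genes were examined in A375, an established human melanoma cell line. The genes are SNHG1, SNHG5, SNHG7, SNHG8, SNHG9, SNHG12, SNHG19, GAS5, ZFAS1 and DANCR. Their rows were found by gene symbol alone, and every row under one of these symbols was taken. This gave 12 transcripts of 10 genes among 3576 RNAs of 3359 gene symbols. The genes themselves were chosen with earlier results of these data known. The cells carry the wild-type genotype per the labels and were sampled at 0 Gy, as the control, and at 8 Gy of ionizing radiation. There is 1 library per dose, and the stated purpose was to learn how melanoma cells become resistant to radiation.

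The deposited table compares 1 library with another, and no label ties either of them to a dose. The values below are therefore given as the numerator over the denominator library, and no value is read as an effect of radiation. No replicate exists, so no difference has a replicate check. A fold change in bulk RNA cannot tell fewer cells that make a transcript from less of the transcript per cell. Of 7 melanoma RNAs looked for, 4 were listed, SAMMSON, BANCR, CASC15 and SPRY4-IT1. Of 14 markers of other cell types 2 were listed, MIR503HG and TINCR. Their smallest read pairs, explained below, were 14 against 15 for MIR503HG and 213 against 215 for TINCR. Those of the melanoma RNAs ran from 229 against 215 for SPRY4-IT1 to 335 against 337 for SAMMSON.

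Small nucleolar RNAs (snoRNAs) guide the chemical modification of ribosomal RNA. Those of the C/D box family guide ribose methylation, and those of the H/ACA box family guide the change of uridine to pseudouridine. In mammals most are cut from introns, so that splicing of 1 precursor yields both the snoRNA and the joined exons of its host. In the genes described here those exons encode no known long protein, and several such spliced RNAs are unstable in the cytoplasm because nonsense-mediated decay removes them. Host genes typically begin with a run of pyrimidines, the terminal oligopyrimidine motif, which they share with the genes of ribosomal proteins and which couples translation to growth.

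The start regions are shown because that motif is what these hosts are known to have in common. The RefSeq promoter table (GRCh38.p14) holds 9 of the 10 genes, all but SNHG9. Each sequence gives 45 bases before the annotated start and 20 bases from it, read on the strand of the gene. Capitals mark TATAA where it begins 40 to 20 bases before the start, and the unbroken run of pyrimidines where the start base is C.
SNHG12 (chr1:28581854-28581918, minus strand): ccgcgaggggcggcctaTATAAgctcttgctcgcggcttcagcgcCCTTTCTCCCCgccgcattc
SNHG19 (chr16:2155339-2155403, minus strand): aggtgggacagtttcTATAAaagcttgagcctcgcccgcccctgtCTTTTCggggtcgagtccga
SNHG5 (chr6:85678714-85678778, minus strand): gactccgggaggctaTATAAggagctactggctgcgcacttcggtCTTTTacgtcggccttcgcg
ZFAS1 (chr20:49278597-49278661, plus strand): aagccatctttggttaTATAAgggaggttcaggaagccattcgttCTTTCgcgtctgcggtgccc
SNHG7 (chr9:136728165-136728229, minus strand): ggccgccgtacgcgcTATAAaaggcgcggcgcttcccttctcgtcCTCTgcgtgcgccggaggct
SNHG1 (chr11:62855866-62855930, minus strand): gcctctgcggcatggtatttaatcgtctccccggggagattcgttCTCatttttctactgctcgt
SNHG8 (chr4:118278717-118278781, plus strand): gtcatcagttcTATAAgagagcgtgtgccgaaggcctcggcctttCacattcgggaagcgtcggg
DANCR (chr4:52712349-52712413, plus strand): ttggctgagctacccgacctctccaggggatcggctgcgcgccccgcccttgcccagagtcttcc
GAS5 (chr1:173869026-173869090, minus strand): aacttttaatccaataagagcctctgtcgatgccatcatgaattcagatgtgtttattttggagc

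A start at C followed by at least 4 more pyrimidines occurs in 4 of the 9, SNHG12, SNHG19, SNHG5 and ZFAS1, against 4.07% of all 35116 RefSeq starts. The run is longest in SNHG12, at 11 bases. SNHG7 has a run of 4 bases and SNHG1 of 3. TATAA, the core of the TATA box, begins 40 to 20 bases before the start in 6 of the 9 on the strand of the gene, against 3.91% of all starts. On the other strand TATAA (written TTATA on the strand of the gene) lies in the same window in 1 of the 9, where it overlaps the forward match, against 1.73% of all starts. These are matches of letters at annotated starts. An annotated start can differ between sources. In GENCODE 29, 4 of the models of 11 listed transcripts begin with C and at least 4 more pyrimidines, against 2.41% of all transcripts. The model of SNHG12 has another start, with a run of 7 bases. That of SNHG8 starts further upstream, so that the TATAA marked above lies inside the transcript.

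The host transcripts differed little between the libraries. All 12 had a log2 fold change below 0 in the authors' deposited table, as did 39.1% of all RNAs and 41.6% of the 798 RNAs classed as lncRNA. The median of the 10 genes was -0.13 on the log2 scale, beside 0.16 for all RNAs and 0.11 for the lncRNA class. Apart from SNHG9 and 1 transcript of DANCR, the 10 remaining transcripts lay between -0.22 and -0.00029. None of the 12 had a p-value under 0.05 in the authors' deposited table, as 3.80% of all RNAs did, and all 12 had q = 1, whereas 0.839% of all RNAs had q under 0.05.

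Whole read numbers were recovered behind each fold change. The commonest log2 fold change, 0.14, occurs in 66 RNAs and was taken as the value of equal read numbers, so the denominator library was 1.10 times the deeper one. The smallest pair of whole numbers that gives a fold change was then searched for, and the true reads are that pair or a whole multiple of it. The exact (Clopper-Pearson) 95% intervals below rest on the smallest pair and are thus the widest the reads allow. They cover counting error only, because PCR reads without molecular identifiers are not independent molecules. Read numbers are not corrected for transcript length, so they do not rank the genes by level.

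GAS5, a transcript that accumulates when growth stops and that hosts C/D box snoRNAs, had the largest recovered pair, 10226 against 11877. Its ratio was 0.946 (95% interval 0.921 to 0.971), a small difference with an interval that lies below 1. SNHG1, the host of the U22 snoRNA SNORD22, stood at 4353 against 5227 reads, a ratio of 0.915 (0.878 to 0.952). SNHG5, the host of the U50 snoRNAs, stood at 2931 against 3221 reads. Its ratio of 0.9995 (0.950 to 1.05) was that of the libraries' depth. Pairs above 3000 are less certain: 0.7% of random values were given a pair of up to 6000, and 2.85% one of up to 12000.

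SNHG19, the host of SNORD60, stood at 2167 against 2599 reads, a ratio of 0.916 (0.865 to 0.970). SNHG8, the host of the H/ACA RNA SNORA24, stood at 1613 against 1796 reads, a ratio of 0.986 (0.922 to 1.06). SNHG12, which hosts RNAs of both box families, stood at 1379 against 1515 reads, a ratio of 0.9998 (0.929 to 1.08). The intervals of SNHG8 and SNHG12 cover 1, and that of SNHG19 lies just below it. ZFAS1, the host of the SNORD12 family antisense to ZNFX1, stood at 349 against 436 reads, with a ratio of 0.879 (0.762 to 1.01) whose interval reaches 1.

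In both genes with more than 1 listed transcript the intervals of the transcripts overlapped, which does not show that they are alike. SNHG7, the host of SNORA17A and SNORA17B, had 614 against 787 reads in NR_003672.2, a ratio of 0.857 (0.770 to 0.954). Its NR_024542.1 had 694 against 849 reads, a ratio of 0.898 (0.811 to 0.994). The GENCODE 29 models of these transcripts differ in structure, with 2157 bases in 2 exons for the first and 789 bases in 5 exons for the second. DANCR, an RNA that holds back the differentiation of epidermal progenitors, had 1026 against 1201 reads in NR_024031.2, a ratio of 0.938 (0.862 to 1.02). Its NR_145129.1 had a smallest pair of only 19 against 30 and a lower ratio of 0.696 (0.370 to 1.28). That wide interval contains the whole interval of the other transcript. No source used here says how reads shared by 2 transcripts of 1 gene were divided, so the values of such a pair may not be independent.

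SNHG9, the host of SNORA78 next to the ribosomal protein gene RPS2, stood apart and had a small recovered pair. That pair was 14 against 33, and the ratio of SNHG9 was 0.466 (0.230 to 0.895). SNHG9 was the only member gene to differ by 2-fold or more, 1 of 10 beside 22.7% of all RNAs in either direction and 6.35% in the lower one (3.88% of the lncRNA class). At 1.2-fold or more, 2 of the 10 genes differed, SNHG9 and DANCR, both lower, beside 67.8% of all RNAs in either direction and 23.6% in the lower one. DANCR passed through the median of its 2 transcripts, of which NR_024031.2, with the far larger pair, did not pass by itself. The shares over all RNAs depend on depth. Among 118 lncRNA-class RNAs with a pair of 300 or more, the hosts of that depth included, 40 differed by at least 1.2-fold and 7 by at least 2-fold. The authors' deposited table gives SNHG9 p = 0.123 and q = 1 at -1.10 on the log2 scale. Its interval lies below those of GAS5, SNHG8, SNHG5 and SNHG12, and these are 4 of the 66 pairs of member transcripts. In the remaining pairs the intervals overlap, which does not show that those transcripts are alike.

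**Figure D1:**
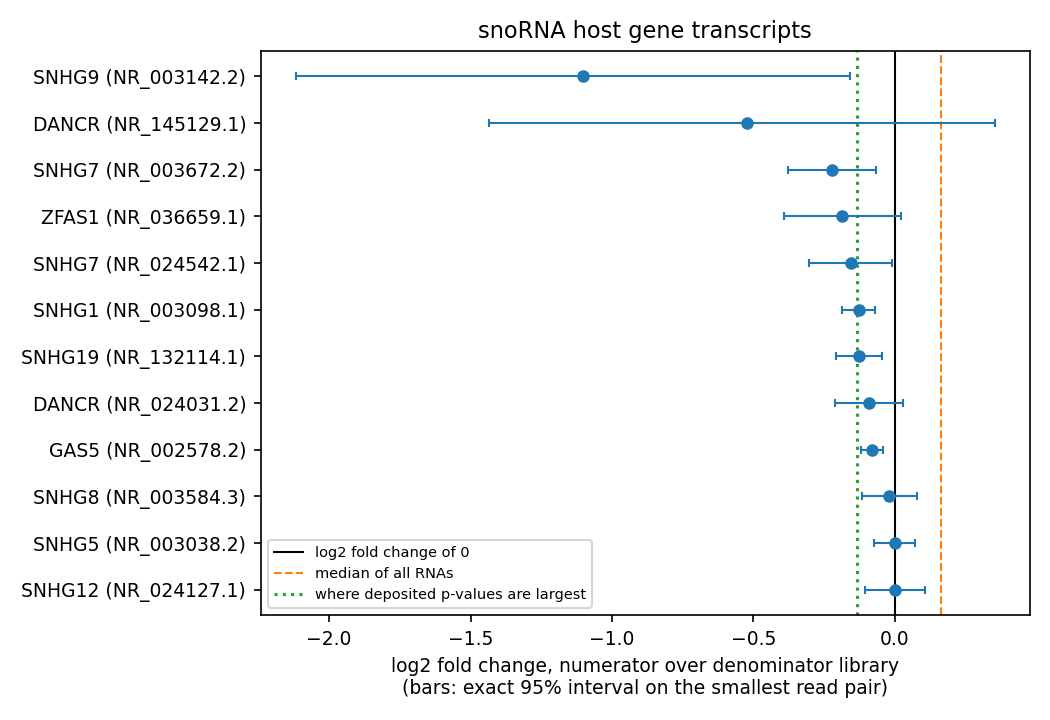
The log2 fold change of each of the 12 host transcripts, numerator over denominator library, with exact 95% intervals on the smallest read pair. All 12 points lie below 0 (solid line) and below the median of all RNAs (dashed, 0.16), and they scatter around the value where deposited p-values are largest (dotted, -0.13).

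Whether the hosts count as lower turns on where no change is placed. The intervals of 6 of the 12 transcripts lay below a ratio of 1 (both of SNHG7, and those of SNHG9, SNHG1, SNHG19 and GAS5), beside 7.97% of all RNAs with a recovered pair. That share depends on depth: among the 118 RNAs of the lncRNA class with a pair of 300 or more, the 10 host transcripts of that depth included, it was 22%, and 50% of them had a log2 fold change below 0. The deposited p-values are largest not at 0 but near -0.13, the median log2 fold change of the 179 RNAs with the highest p. Measured from there, 5 transcripts lay below and 7 above, beside 30.8% of all RNAs and 31.6% of the lncRNA class below. Of the intervals, 7 covered that value, and 1 (SNHG9) lay below it. The 4 intervals above it were those of GAS5, SNHG8, SNHG5 and SNHG12. Measured from the median of all RNAs, 0.16, all 12 lay below, with 11 of the intervals.

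The largest deposited p-values among the host transcripts examined lie near that shifted centre. The authors' deposited table gives SNHG1 p = 0.954 and SNHG19 p = 0.931, both at -0.13 on the log2 scale. SNHG5, at -0.00071 on that scale, has p = 0.146 in the authors' deposited table, lower although its ratio is close to 1. GAS5 has p = 0.303 in the authors' deposited table and SNHG12, at -0.00029 on the log2 scale, has p = 0.559. Among these host transcripts the deposited p-values nearest 1 thus mark values near -0.13, not near 0. Fold change alone does not set the p-value. SNHG5, with the larger pair, has a lower p-value than SNHG12 at nearly the same log2 fold change. Among the other snoRNA host lncRNAs described below, a p-value near 1 also occurs near 0. The SNHG17 transcript NR_015366.4, at 0.03 on the log2 scale, has p = 0.918 in the authors' deposited table. Its smallest pair is only 40 against 43. The part of read number was not tested.

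**Figure D2:**
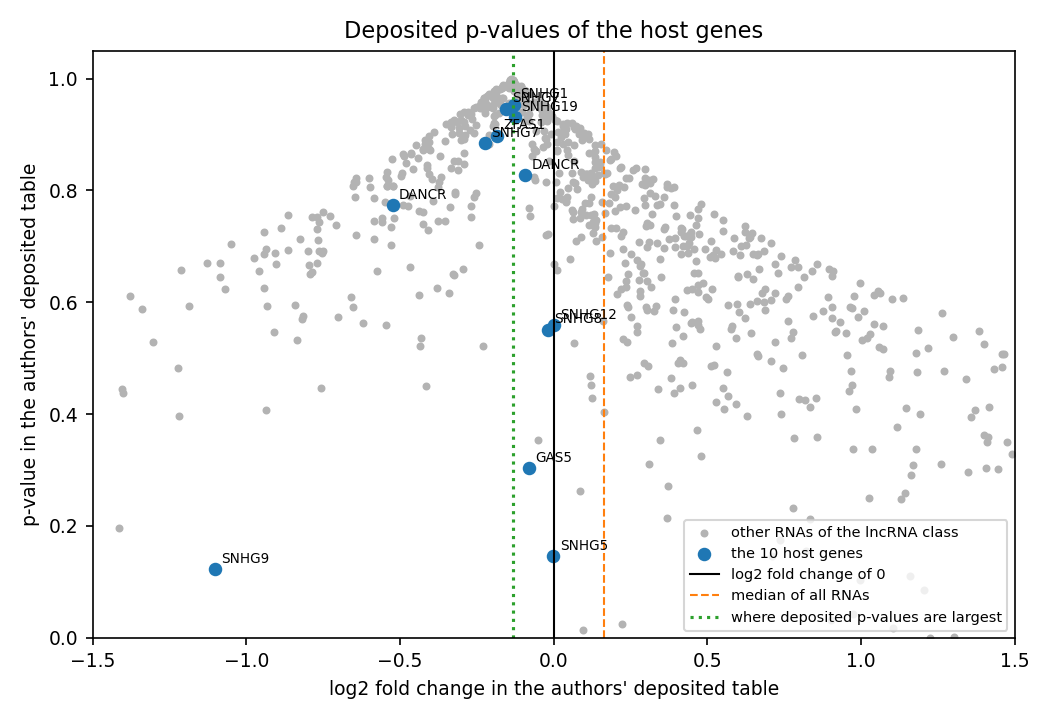
The p-value of each RNA of the lncRNA class against its log2 fold change, both from the authors' deposited table, with the host genes in blue and log2 fold changes beyond 1.5 in either direction not shown. SNHG1, SNHG19 and the SNHG7 transcript NR_024542.1 sit at the peak near -0.13 (dotted line), while SNHG5 lies near 0 with a lower p-value.

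The well-covered hosts lay close together. The 10 host transcripts with a pair of 300 or more had an SD of 0.0772 on the log2 scale, and all 10 lay within 0.25 of 0. The 108 other RNAs of the lncRNA class at that depth had an SD of 0.452, and 65 of them (60.2%) lay within 0.25 of 0. Their median was 0.07, and 7 of them differed by 2-fold or more. The sets were not matched in reads, since the larger number of the pair had a median of 1656 in the hosts and 598 in the others. The part of depth in the difference in spread was not tested.

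**Figure D3:**
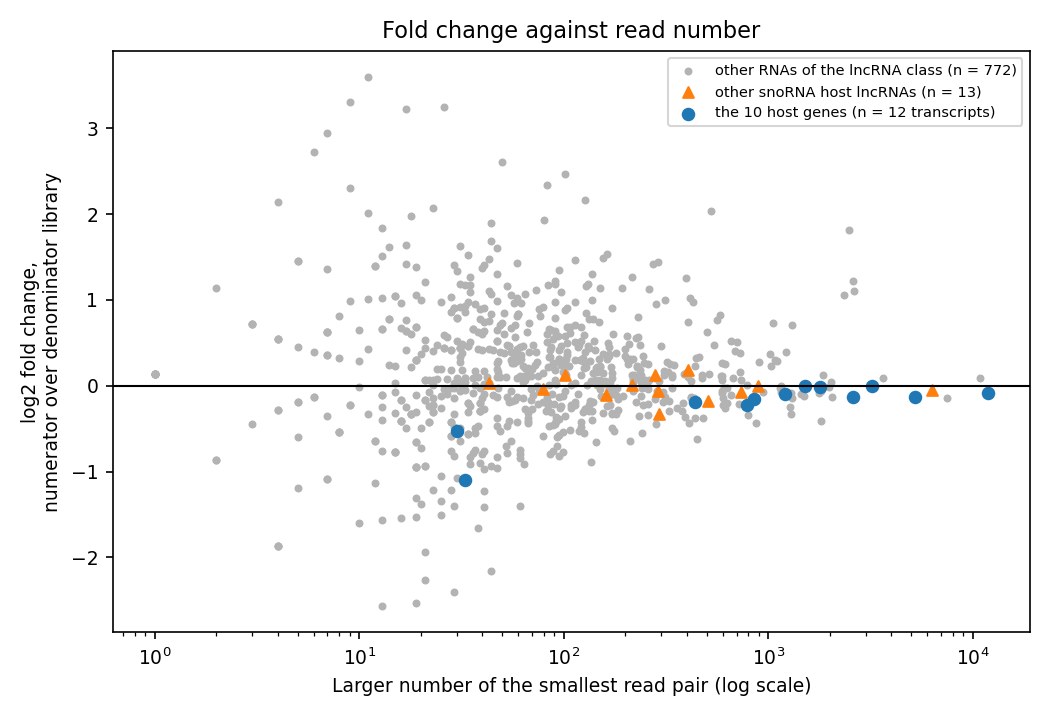
The log2 fold change of each RNA of the lncRNA class with a recovered read pair against the larger number of that pair (log scale), with the host genes in blue and other snoRNA host lncRNAs in orange. The blue points with many reads form a flat band just below 0, while grey points within the hosts' range of reads reach 2.04.

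The other snoRNA host lncRNAs behaved much alike. Of 30 names on that list 11 were in the table, with 13 transcripts. By gene, 8 lay below 0 and 3 above, with a median of -0.04. None differed by 1.5-fold or more, beside 41.8% of all RNAs. That share depends on depth: of 118 lncRNA-class RNAs with a pair of 300 or more, 16 differed that much. The hosts on the list were not matched to either set in reads. SNHG6, which hosts SNORD87, had the largest pair of these hosts, 5565 against 6337, and a ratio of 0.965 (0.9303 to 1.0001). The lowest was SNHG20 at 0.794 (0.662 to 0.951), from 211 against 292 reads, and the next SNHG11 at 0.884 (0.774 to 1.01). The highest were SNHG3, the host of the U17 snoRNAs, at 1.13 (0.985 to 1.31), NOP14-AS1 at 1.09 (0.923 to 1.30) and SNHG25 at 1.09 (0.818 to 1.45).

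The remaining listed transcripts of that list lay between those values. SNHG4 stood at 0.928 and 1.01 in its 2 transcripts and SNHG17 at 0.962 and 1.02. EPB41L4A-AS1 stood at 0.948, SNHG10 at 0.973 and SNHG15, from 809 against 889 reads, at 0.9996. Non-coding transcripts of protein-coding snoRNA hosts were rare in the table, with 3 of 58 names listed. NOP56, a core protein of C/D box particles, stood at 1.01 (0.699 to 1.47), RABGGTB at 1.01 (0.904 to 1.14) and DKC1, the pseudouridine synthase of H/ACA particles, at 1.19 (0.663 to 2.13).

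The snoRNAs inside the 10 genes had an SD of 0.490 on the log2 scale, beside 0.311 for the 12 host transcripts. Their recovered pairs were smaller, and the true reads may be multiples of them. Of the 31 listed, 21 had a pair of 50 or more and none a number above 649, whereas 10 of the 12 hosts had a pair of 300 or more. GENCODE 29 and the RefSeq gene table together place 38 snoRNA names inside them, of which 31 are in the table. GENCODE 29 places 18 of these on the strand of the host, 17 in introns and 1, SNORD25, within an exon of the matched SNHG1 model. The other 13 are placed by RefSeq coordinates alone, whose strand is not in that table. None of the snoRNAs inside SNHG7 was listed. Reads of unspliced host RNA cannot be told from reads of a snoRNA in an intron.

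Of the 31 snoRNAs, 13 lay below 0 and 18 above, with a median of 0.03, beside 49.6% below 0 and 50.4% above among all 274 snoRNAs. Values ran from -1.57 (SNORA78) to 0.96 (SNORD81) in the authors' deposited table, and 19 lay above their host and 12 below. A difference between a snoRNA and its host is free of that choice of zero. The intervals of 26 covered the value of the host, 5 lay above it and none below, with the host's own interval left out. These intervals rest on the smallest pairs, and fewer might cover the host if the true reads were multiples.

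The 10 listed snoRNAs of GAS5, all of the C/D box family and singled out after their values were seen, lay above 0 and above GAS5 itself, by 0.09 to 1.04 on the log2 scale with a median of 0.39. SNORD78 had 113 against 85 reads and a ratio of 1.46 (1.09 to 1.96), and SNORD76 had 347 against 307 reads and a ratio of 1.24 (1.06 to 1.45). Both intervals lie above 1 and above the ratio of GAS5. The interval of SNORD79 (1.37, 0.952 to 1.97) lies above the ratio of GAS5 but overlaps its interval (0.921 to 0.971) and covers 1. Such an interval above 1 was found for 12.4% of all snoRNAs.

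The remaining 7 snoRNAs of GAS5 had intervals on the smallest pair that covered the value of their host. Where the true reads are a multiple of that pair, the interval would be narrower and might not cover it. SNORD81 was highest at 1.94 (0.944 to 4.18), from a pair of 23 against 13, and in the authors' deposited table it has p = 0.00025 and q = 0.0629. SNORD44 stood at 1.23 (0.692 to 2.20), and its p of 0.00161 in the authors' deposited table is low for its pair of 28 against 25, of which the true reads may be a multiple. SNORD74, with 470 against 513 reads, and SNORD80, with 604 against 649, were the closest to GAS5 at 1.01 (0.886 to 1.14) and 1.02 (0.913 to 1.14). SNORD47 stood at 1.11, SNORD77 at 1.17 and SNORD75, from a smallest pair of 7 against 5, at 1.54 (0.420 to 6.14).

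Of these 10, SNORD44, SNORD76, SNORD78 and SNORD81 have p under 0.05 in the authors' deposited table, and 7 of all 31 do, beside 16.4% of all snoRNAs. None of the 31 has q under 0.05 there. GAS5-AS1, on the opposite strand of GAS5, stood at 0.711 (0.301 to 1.61) from 11 against 17 reads. No source used here states the strand setting, and overlapping genes on opposite strands may share their reads.

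Outside GAS5, 9 of 21 listed snoRNAs lay above their host, and in ZFAS1 all 3 did. The whole interval lay above the host's ratio for 1 snoRNA of ZFAS1 and 1 of SNHG5. SNORD12, in ZFAS1, had 295 against 252 reads and a ratio of 1.29 (1.08 to 1.53), against 0.879 for ZFAS1. Its relatives in the same gene were lower, SNORD12B at 0.976 (0.826 to 1.15) and SNORD12C at 1.04 (0.697 to 1.55), with intervals that overlap that of SNORD12. SNORD50B, in SNHG5, had 59 against 41 reads and a ratio of 1.58 (1.04 to 2.42), while SNORD50A stood at 0.755 (0.317 to 1.73). The interval of SNORD50B overlaps that of SNHG5 (0.950 to 1.05). In the authors' deposited table SNORD12 has p = 0.00806 and SNORD50B p = 0.00427.

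Outside GAS5, the snoRNAs whose intervals lay above the ratio of their host are SNORD12 and SNORD50B. SNORD12B and SNORD12C are relatives of SNORD12 from the same gene. The sequences of the SNORD12 family and SNORD50B, from GENCODE 29 transcripts, are therefore shown. They are read on the strand of the gene, on chromosome 20 for the family and chromosome 6 for SNORD50B. Capitals mark the C box, searched as TGATGA near the beginning, and the D box, searched as CTGA near the end, on this strand only. No GENCODE 29 sequence was matched for 13 of the 31, those of GAS5 among them.
SNORD12: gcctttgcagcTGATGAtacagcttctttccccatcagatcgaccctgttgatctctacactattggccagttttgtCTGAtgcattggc
SNORD12B: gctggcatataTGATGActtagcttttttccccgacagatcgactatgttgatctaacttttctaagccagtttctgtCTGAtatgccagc
SNORD12C: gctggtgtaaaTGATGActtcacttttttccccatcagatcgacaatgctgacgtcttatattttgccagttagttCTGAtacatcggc
SNORD50B: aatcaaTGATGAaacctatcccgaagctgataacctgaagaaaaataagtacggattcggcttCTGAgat

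SNHG1 had 8 snoRNAs listed, which fell on both sides of it, 5 below 0 and 3 above with a median of -0.25. SNORD31 stood at 0.835 (0.687 to 1.01) from 187 against 246 reads, SNORD26 at 0.844 (0.662 to 1.07) and SNORD25 at 1.01 (0.855 to 1.18) from 292 against 319. The extremes had small pairs, SNORD28 at 1.56 (0.7004 to 3.57) from 17 against 12 and SNORD30 at 0.549 from 1 against 2. The true reads may be multiples of these pairs. SNORD29 stood at 0.717, SNORD27 at 0.739 and SNORD22 at 1.13, all with intervals that cover 1 and SNHG1.

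The 4 snoRNAs of SNHG12 were listed, 3 below 0 and 1 above. SNORA16A had 401 against 391 reads and a ratio of 1.13 (0.978 to 1.30), and SNORD99 had 73 against 101 and a ratio of 0.794 (0.579 to 1.08). SNORA61 stood at 0.982 and SNORA44 at 0.857. All 4 intervals covered the ratio of SNHG12. TRNAU1AP, on the opposite strand there, has a listed non-coding transcript at 1.71 (1.09 to 2.72) from 53 against 34 reads.

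The last 4 hosts had 1 listed snoRNA each. SNORA24 stood at 0.956 (0.842 to 1.09) from 457 against 525 reads, close to SNHG8. SNORD60 stood at 0.895 (0.486 to 1.63), close to SNHG19, and SNORA26 at 1.12 (0.860 to 1.45), with an interval that covers the ratio of DANCR. SNORA78 was lowest of all at 0.338 (0.0803 to 1.09), from a pair of 4 against 13, on the same side as its host SNHG9. Both rest on small pairs, of which the true reads may be multiples, and the interval of SNORA78 reaches above 1.

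**Figure D4:**
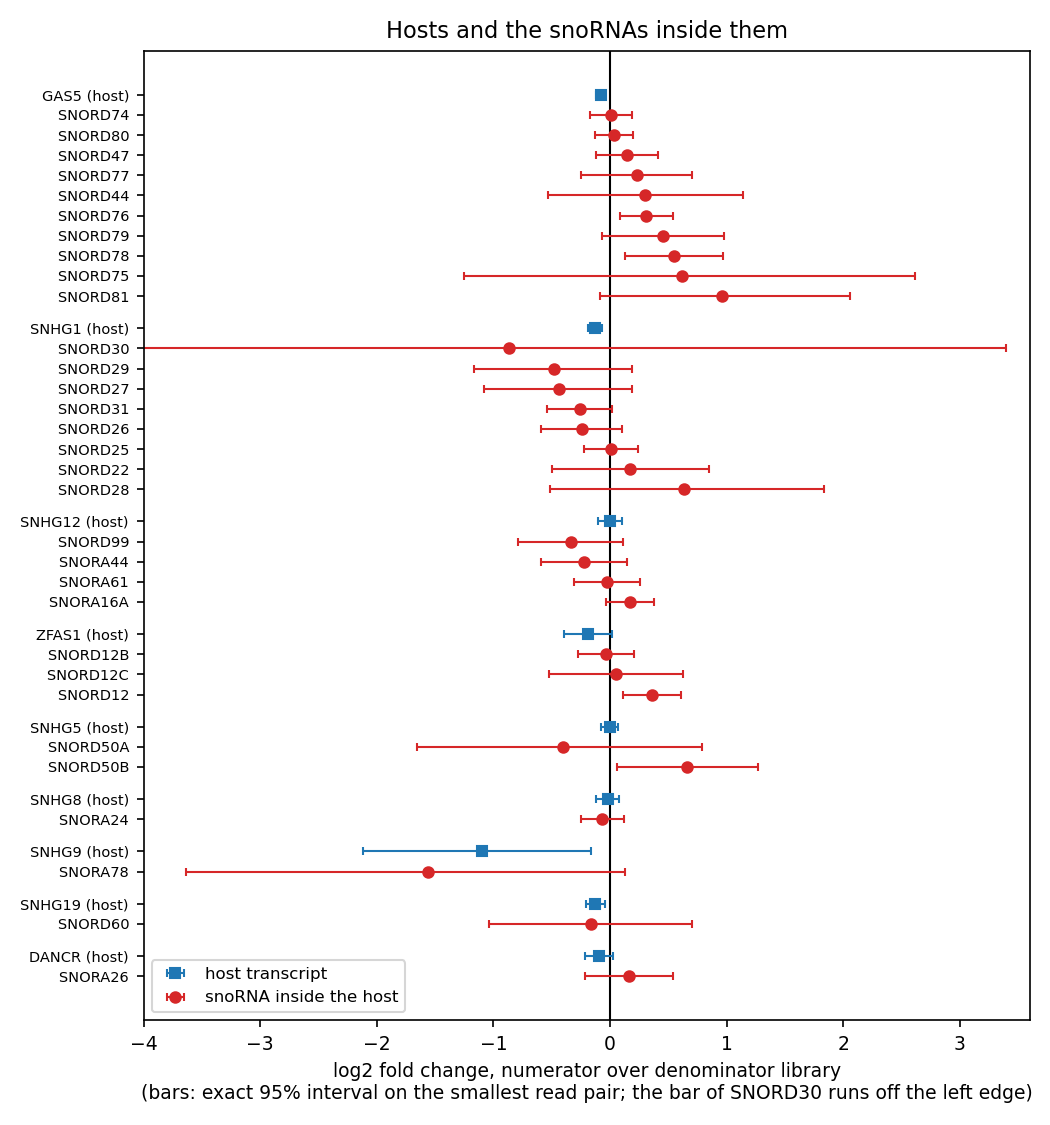
The log2 fold change of each host (blue squares, its transcript with the most reads) and of the listed snoRNAs inside it (red circles), with exact 95% intervals on the smallest read pair. All 10 snoRNAs of GAS5 lie to the right of GAS5, whereas those of SNHG1 and SNHG12 lie on both sides of their hosts.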

How the data were processed

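RNA was profiled in A375 cells at 0 Gy and 8 Gy, with 1 library per dose. Total RNA was made into mRNA-seq libraries per the labels' protocols. The only genome build in the submitters' processing notes is mm10, a mouse build, whereas the identifiers are human, so no coordinates are drawn from the table. The aligner, the counting, its strand setting and the test: not given in the sources used here. For each RNA the authors deposited a fold change on the log2 scale. They also deposited its p-value and q-value, whose tests no header names. Its 2 per-sample columns carry names found in no label and were not used, so read pairs were recovered from the fold change alone.

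Pairs of whole numbers were searched up to 3000 and, an extension made after the values were seen, up to 20000, within a relative tolerance of 5e-10, and found for 3563 RNAs (99.6%). Simulated pairs were recovered in 100% of 995 cases up to 3000, 546 up to 6000 and 573 up to 12000. Members came from the Gene column. The named RNAs were all transcripts of the 10 genes, the other host lncRNAs, the coding hosts and the snoRNAs inside the 10 genes. Members and lists were chosen with earlier results of these data known. No test was run, since there are no replicates. snoRNAs were placed by GENCODE 29 and, added after the values were seen, by the RefSeq gene table (GRCh38.p14). In comparisons with snoRNAs the host's value is that of its transcript with the most reads, and elsewhere the median over a gene's transcripts. The software was matplotlib 3.10.9, scipy 1.17.1, pandas 2.3.3 and numpy 2.4.6 under Python 3.11.15.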

Additional observations from a re-analysis of the deposited data

How the results depend on the processing

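Of 30 alternative values for counts and medians, 19 stayed within 1.5 times or within the SD between genes, and 11 moved. That SD, 0.33, is larger than the members' median of -0.13 is far from 0, so a median could shift much and still count as staying. With the zero where deposited p-values are largest the median was 0.0051, and with the zero at the median of all RNAs it was -0.29. With the zero placed where deposited p-values are largest, 4 member genes lay below 0 and 6 above. There, 2 of the other hosts lay below and 9 above, and 30.8% of all RNAs lay below. With the zero at the median of all RNAs, 1 of the other hosts and 5 of the snoRNAs placed by GENCODE lay above 0. Adding the snoRNAs placed by RefSeq raised those above 0 from 8 to 18. At 1.2-fold, 2 member genes differed. Over all RNAs, 1493 differed by 1.5-fold and 2425 by 1.2-fold, and 126 by 2-fold with a pair of 50 or more, each by its own construction. No paired analysis was possible because each dose has 1 library, which also leaves no library to omit. Total reads are not known here, and depth limits the precision of RNAs with small pairs, among them SNHG9, the DANCR transcript NR_145129.1 and several snoRNAs.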
